A study of Homo sapiens with 12 samples.

Results

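PTHLH encodes parathyroid hormone-related protein, and the locus described here is the 400 kb of chromosome 12 from 28000000 to 28400000 (hg19, as are all peak positions) that surround it. Its members are the H3K27ac peaks of 6 deposited peak lists that overlap this window. There were 60 of them among 190767 peaks, and peaks that shared at least 1 bp merged into 20 regions out of 58994. The gene lies at about 28111000 to 28125600 on the minus strand, so higher coordinates are upstream of it. The locus was chosen by the extent of its called peaks in these same lists, so its values are given as a description and no test was made on them. With 2 libraries against 2, the smallest 2-sided exact permutation p would be 0.333.

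H3K27ac, acetylation of histone H3 on lysine 27, marks active promoters and enhancers. It was profiled by ChIP-seq in untreated BxPC3, Panc327 and SUIT2 cells, 3 human lines of pancreatic ductal adenocarcinoma grown under standard conditions, in a study whose title concerns the deacetylase SIRT6 and the integrated stress response. The 12 samples were 2 H3K27ac and 2 input libraries per line, and the 6 H3K27ac libraries came with a peak list apiece. The labels do not say whether the replicates came from separate cultures, so a spread between them may be technical.

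Parathyroid hormone-related protein is a secreted peptide that binds the receptor PTH1R, the receptor it shares with parathyroid hormone, and acts on neighbouring cells. It regulates growth plate cartilage and mammary development and is made by keratinocytes. Released by tumours, including squamous and some pancreatic carcinomas, it causes hypercalcaemia of malignancy by driving bone resorption. Transcription of the gene starts at several promoters, and enhancers in the surrounding non-coding DNA can carry H3K27ac where it is active. The mark is not a measure of RNA, and no RNA was measured in these samples.

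The promoter that RefSeq lists for PTHLH is shown because H3K27ac lay over the upstream part of the gene in every library. It covers 250 bases before and 50 after the listed start, at chr12:27969927-27970226 on the minus strand of GRCh38.p14, which is another build than that of the peaks, so its bases were not placed in a peak. Capitals mark the motifs found by searching both strands.
PTHLH promoter: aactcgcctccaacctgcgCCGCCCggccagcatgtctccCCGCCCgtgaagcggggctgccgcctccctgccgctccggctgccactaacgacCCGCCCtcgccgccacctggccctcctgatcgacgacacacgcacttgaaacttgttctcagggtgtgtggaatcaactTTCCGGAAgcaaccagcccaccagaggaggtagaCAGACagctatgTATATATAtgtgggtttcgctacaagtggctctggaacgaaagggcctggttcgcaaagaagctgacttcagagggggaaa

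The distal part of this promoter is rich in G and C and the proximal part is not: G and C made up 70.0% of its first 150 bases and 50.7% of its last 150. The GC box, GGGCGG, the letters bound by SP1, occurred 3 times, all on the reverse strand, and was present in 45.0% of 35116 promoters of the same length. The ETS core, CCGGAA, occurred on both strands as the overlapping letters TTCCGGAA, and 17.2% of promoters held the core. TATATATA started 31 bases before the listed start and was found in 0.555% of promoters, while TATAAA, in 11.5%, was not in these letters. CAGAC, a short SMAD box, occurred 1 time and was in 45.3% of promoters. The AP-1 letters TGACTCA, the GLI letters GACCACCCA and the E-box CACGTG were not in this window; 4.95%, 0.236% and 7.26% of promoters held them. A match is a description of letters and not of binding.

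Peaks covered the locus most widely in Panc327 replicate 2 and least widely in Panc327 replicate 1. The covered length was 20.9 and 25.7 kb in BxPC3 replicates 1 and 2, 8.62 and 58.2 kb in Panc327 and, for SUIT2, 10.3 and 10.1 kb. The means were 23.3 ± 3.37 kb in BxPC3, 33.4 ± 35.0 kb in Panc327 and 10.2 ± 0.125 kb in SUIT2 (SD, n = 2). Both BxPC3 libraries thus lay above both SUIT2 libraries, while the Panc327 libraries lay on either side of all 4 others and their mean describes neither. Of 7595 windows of 400 kb over the genome, each ranked within its own library, this one was number 25 in Panc327 replicate 2 and number 1140 in replicate 1. It ranked 600 and 496 in BxPC3 and 1987 and 2110 in SUIT2. Regions called in both libraries of a line numbered 8 of 20 in BxPC3, 4 in Panc327 and 8 in SUIT2, beside 49.7%, 33.7% and 45.6% of all 58994 regions. These shares of all regions are given as the background, and nothing is read from them, since the peaks chose the window.

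**Figure D1:**
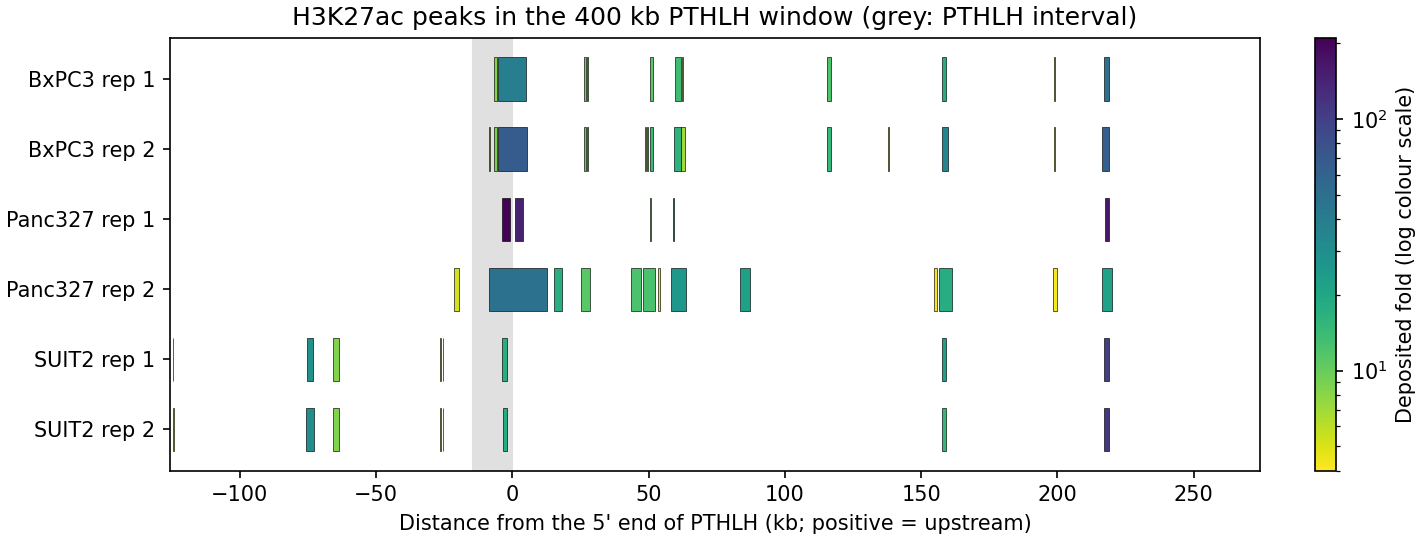
Called H3K27ac peaks (bars) in the 6 libraries across the 400 kb window, by distance from the 5′ end of PTHLH in kb, with the deposited fold of each peak as colour on a log scale and the gene interval in grey. SUIT2 peaks lie downstream of the gene where BxPC3 has none, and BxPC3 and Panc327 replicate 2 peaks crowd the first 100 kb upstream, where SUIT2 has none.

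The H3K27ac over PTHLH itself formed 1 merged region of 21.5 kb, from 28116880 to 28138368, called in all 6 libraries. It is the only region that overlaps the gene interval. Regions called in all 6 libraries numbered 2 of the 20 here, beside 21.6% of all regions. Within it the libraries differed in breadth: peaks covered 11.0 and 12.2 kb in BxPC3 replicates 1 and 2, 5.93 and 21.5 kb in Panc327 and, for SUIT2, 1.67 and 1.53 kb. Every BxPC3 and Panc327 library called more of it than either SUIT2 library did. Peaks covered 41.8% and 48.0% of the gene interval in BxPC3, 20.7% and 59.7% in Panc327 and, for SUIT2, 11.4% and 10.5%.

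BxPC3 called 1 main peak there in each library. It spanned 28120324 to 28130517 in replicate 1, a width of 10.2 kb that ranked 55 among the 34113 peaks of the list, and 28120256 to 28130823 in the other library, where its 10.6 kb ranked 62 of 38335. Panc327 replicate 1 had a pair of narrower peaks, 28121760 to 28124782 and 28126599 to 28129507. Panc327 replicate 2 had a single peak over the whole region, the widest of its list of 29139. Both Panc327 replicate 1 peaks fell inside the main BxPC3 peaks, so the DNA called in all 4 BxPC3 and Panc327 libraries was exactly these 2 stretches of 3.02 and 2.91 kb. SUIT2 had 1 peak per library, 28121918 to 28123588 and 28122067 to 28123593, and all of its 1676 bases were also called in the other 4 libraries.

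The bases called in every library ran from 28122067 to 28123588, a core of 1.52 kb inside the gene interval near its 5′ end. It made up 7.08% of the region, while 43.0% was called in Panc327 replicate 2 alone. The summits, the positions of highest pile-up, lay close together in both BxPC3 libraries and Panc327 replicate 1. They were 1.94 and 1.96 kb inside the 5′ end in the main BxPC3 peaks, at 28123664 and 28123641, and 2.04 kb inside it, at 28123565, in the higher peak of Panc327 replicate 1. In SUIT2 they lay 2.72 and 2.80 kb inside it, at 28122877 and 28122800. The second peak of Panc327 replicate 1 had its summit 2.80 kb upstream of the gene, at 28128403, and the single summit of Panc327 replicate 2 was near that one, at 28128073. Beyond the 5′ end, the region held 4.92 and 5.22 kb of called bases in BxPC3 and 2.91 and 12.8 kb in Panc327. SUIT2 had 0 there in both libraries.

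**Figure D2:**
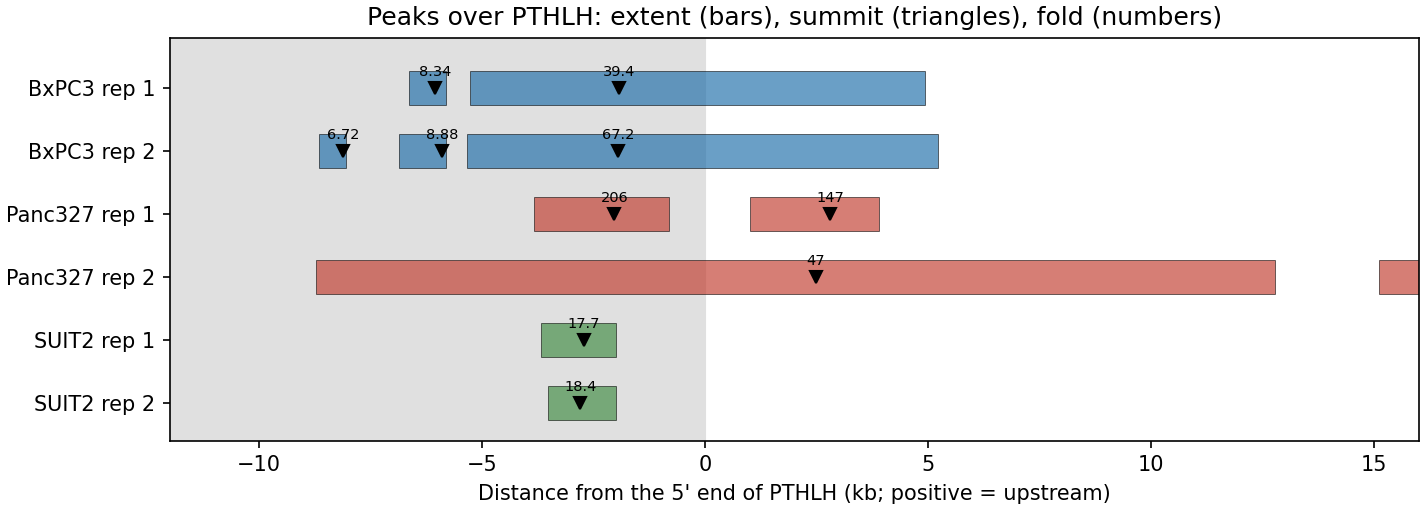
Peaks over PTHLH in each library by distance from its 5′ end in kb, with bars for their extent, triangles for the summits, numbers for the deposited fold and grey for the gene interval. The SUIT2 peaks end inside the gene, and the BxPC3 and Panc327 peaks also cover DNA upstream of it.

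The mark over PTHLH was called in every line and was lowest in SUIT2. The authors' fold of each peak, the ChIP pile-up over the local background, is given at its summit. For the highest peak that overlaps the gene it was 39.4 and 67.2 in BxPC3, 206 and 47.0 in Panc327 and, for SUIT2, 17.7 and 18.4. In Panc327 replicate 2 that summit lay 2.47 kb upstream of the gene, and in the other libraries it lay inside the gene. The lowest of the BxPC3 and Panc327 values lay above both SUIT2 values. Folds of different lists are not on 1 scale, since the median fold of a list ran from 11.1 in Panc327 replicate 2 to 23.2 in Panc327 replicate 1. Relative to the median of its own list, the peak over PTHLH was 2.74 and 4.79 times as high in BxPC3, 8.85 and 4.24 times in Panc327 and, for SUIT2, 0.882 and 0.973 times. By −log10 q it stood at percentiles 96.5 and 97.7 of the BxPC3 lists, 99.8 and 99.9 of the Panc327 lists, and 48.0 and 49.6 of the SUIT2 lists. In SUIT2 the PTHLH peak was therefore close to the middle of the list, and in Panc327 it ranked 47 and 28 from the top.

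A second region called in all 6 libraries gave a comparison inside each library. It lay 218 kb upstream of the gene, at 28341894 to 28345720, and was strong everywhere: its fold was 48.8 and 64.3 in BxPC3, 165 and 21.5 in Panc327 and, for SUIT2, 99.96 and 113. The fold over PTHLH divided by the fold of that region was 0.807 and 1.05 in BxPC3, 1.25 and 2.19 in Panc327 and, for SUIT2, 0.177 and 0.162. SUIT2 was the lowest by this ratio too, and both Panc327 libraries were above both BxPC3 libraries. In the order of the GRCh38.p14 gene table, the nearest protein-coding genes are KLHL42 on the downstream side and CCDC91 on the upstream side, with the non-coding LOC105369710, LOC107984462 and LOC729291 and the pseudogene IFT57P1 between PTHLH and CCDC91. No annotation of hg19 was used, so the region was not assigned to a gene.

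**Figure D3:**
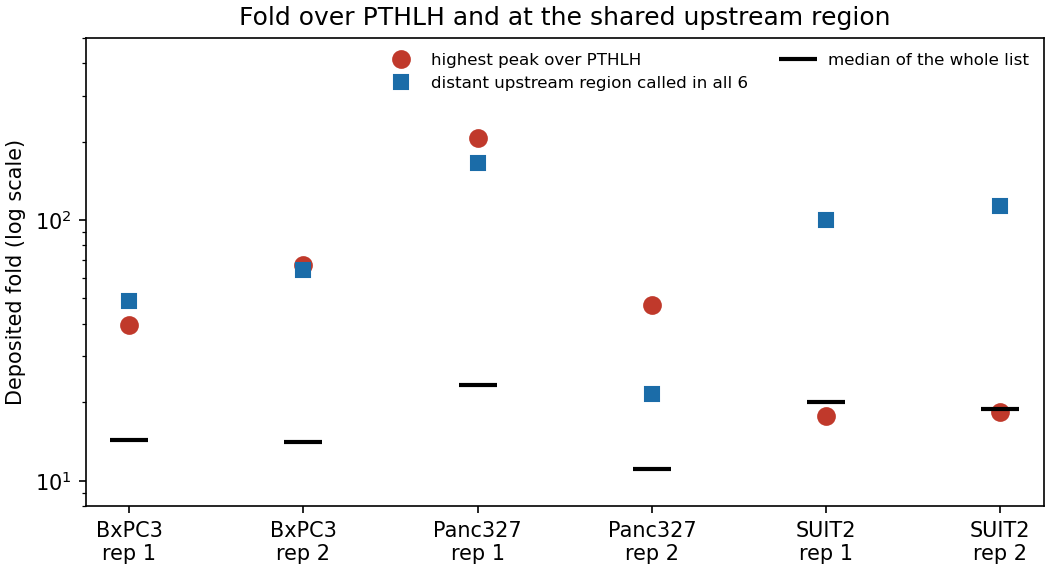
Deposited fold, on a log axis, of the highest peak over PTHLH (circles) and of the region 218 kb upstream that all 6 libraries called (squares), with the median fold of each list as a bar. In SUIT2 the PTHLH peak sits at 17.7 and 18.4, near the list median, and the upstream region at 99.96 and 113.

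Upstream of the gene, BxPC3 and Panc327 replicate 2 carried further regions that SUIT2 lacked, and most of these were not called in Panc327 replicate 1. Of the 20 regions, 2 were called in both BxPC3 and both Panc327 libraries with no peak in SUIT2, beside 3.82% of all regions. The first, 48.0 kb upstream at 28173563 to 28177996, had folds of 11.0 and 14.2 in BxPC3 and 9.61 and 12.4 in Panc327. Its Panc327 peaks were 0.557 and 4.43 kb wide in replicates 1 and 2, at 0.414 and 1.12 times the median fold of their lists. The second, 58.1 kb upstream at 28183714 to 28189361, had folds of 13.6 and 16.4 in BxPC3 and 22.7 and 25.7 in Panc327. Its covered length was 2.45 and 3.68 kb in BxPC3 but 0.474 and 5.65 kb in Panc327, and against its own list the region stood at 0.979 times the median fold in Panc327 replicate 1 and 2.32 times in replicate 2. The Panc327 replicate 1 peak ended at 28185073, and the first BxPC3 replicate 1 peak began at 28185276. These libraries thus had no called base in common in this region. A weaker one, 25.1 kb upstream at 28150664 to 28154084, was called in both BxPC3 libraries (9.24 and 10.4) and in Panc327 replicate 2 (11.1) but not in Panc327 replicate 1.

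BxPC3 had 1 region of its own in both libraries, beside 12.9% of all regions. It lay 115.6 kb upstream at 28241154 to 28242590, was 1.44 kb wide, and had folds of 12.2 and 14.8. A small peak of 0.347 kb, 137.8 kb upstream, was called in BxPC3 replicate 2 alone, with a fold of 6.55. Panc327 had 0 regions of its own in both libraries, beside 5.79% of all regions. Regions of SUIT2 and BxPC3 with no peak in Panc327 also numbered 0 (4.18% of all regions), as did those of SUIT2 and Panc327 with no peak in BxPC3 (1.17%).

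Downstream of the gene the pattern was the other way round, and SUIT2 was the line with peaks. All 5 regions called in both SUIT2 libraries and in no other library lay there, beside 13% of all regions. The strongest was 2.69 kb wide at 28050032 to 28052717, 72.9 kb from the 5′ end of PTHLH, with folds of 28.8 and 30.7. That is above the SUIT2 folds of 17.7 and 18.4 over the gene. The next, at 28059940 to 28061825, had folds of 8.50 and 8.44. The other 3, at 28001005 to 28001327, 28098989 to 28099434 and 28099970 to 28100329, were at most 0.446 kb wide, with folds of 6.60 or less, and none of their peaks reached a −log10 q of 20. At that threshold SUIT2 had 2 regions of its own in place of 5. Called bases downstream amounted to 5.36 and 5.48 kb in SUIT2 and 0 in both BxPC3 libraries. Panc327 had 0 in replicate 1 and 1.74 kb in replicate 2, from 1 peak at 28104189 to 28105931 with a fold of 5.28. Upstream, the called bases were 3.26 and 3.12 kb in SUIT2, 14.8 and 18.7 kb in BxPC3, and 5.60 and 47.7 kb in Panc327.

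**Figure D4:**
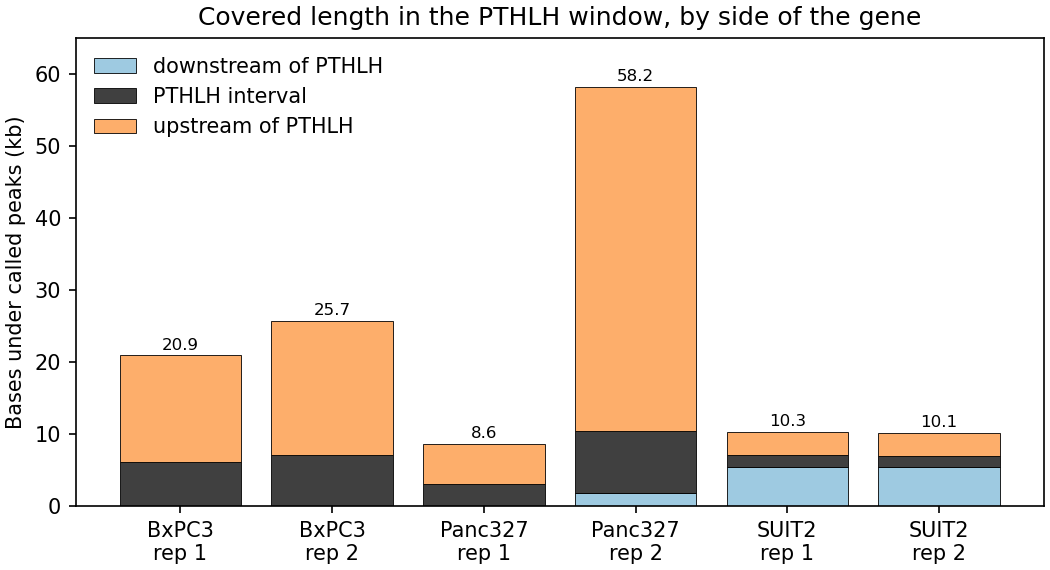
Bases under called peaks in the window, in kb, for each library, split into DNA downstream of PTHLH, the gene interval and DNA upstream. The SUIT2 bars hold 5.36 and 5.48 kb downstream, the BxPC3 bars none, and the Panc327 bars reach 8.62 and 58.2 kb in all.

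SUIT2 did share some of the distant upstream marking. The region at 28282239 to 28286849, 156.6 kb upstream, was called in both SUIT2 libraries (folds of 23.1 and 15.2), both BxPC3 libraries (18.4 and 34.4) and Panc327 replicate 2 (17.8). It was not called in Panc327 replicate 1. The region at 28324073 to 28325372 was weak where called, with folds of 6.83 and 5.53 in BxPC3 and 4.16 in Panc327 replicate 2. SUIT2 thus had no called peak between the 5′ end of PTHLH and 156.6 kb upstream, where every BxPC3 and Panc327 library had some.

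In Panc327, replicate 2 called every region that replicate 1 called and many more. All 4 regions called in replicate 1 were also called in replicate 2, so 0 were called in replicate 1 alone of the pair, beside 8.54% of all regions, while 9 of the 20 regions were called in replicate 2 and not in replicate 1, beside 12.5% of all regions. In all, 6 of the 20 regions, each among those 9, were called in replicate 2 and in no other library, beside 6% of all 58994 regions. Over the genome, 3537 of the 7395 regions called in replicate 2 and not in replicate 1 were called in no other library. The highest of these had folds of 21.8 at 28209290 to 28212901, 17.7 at 28140719 to 28143645 and 12.3 at 28169216 to 28172699, and the lowest 3 had folds of 4.15 to 5.28. The lowest fold of the whole list was 4.04 in replicate 1 and 2.78 in replicate 2, and folds of these lists are not on 1 scale. Why replicate 1 lacked these peaks was not tested. Inside the window the Jaccard index of the Panc327 pair, the bases called in both over those called in either, was 0.148, against 0.519 over the genome. It was 0.790 and 0.814 for the BxPC3 pair and 0.918 and 0.868 for the SUIT2 pair. Between lines in the window it was 0.309 to 0.398 for BxPC3 with Panc327, 0.148 to 0.184 for BxPC3 with SUIT2, and 0.0730 to 0.214 for Panc327 with SUIT2. The Panc327 replicates were in this window less alike than any Panc327 library and any BxPC3 library. Peaks were also wider in replicate 2: their median width was 3484 bp here and 1292 bp over the list, against 1658 and 1008 bp in replicate 1.

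The local background at the peaks was recovered from the deposited fold and −log10 p and taken to stem from the input libraries. By its median over the window it was highest in Panc327. Relative to the genome-wide level of the same library, its median over the peaks of the window was 2.17 and 2.94 in Panc327, 1.70 and 1.27 in BxPC3, and 1.37 and 1.49 in SUIT2. The lowest Panc327 peak of the window was at 2.10 in replicate 1 and 2.11 in replicate 2, and 8.51% and 11.9% of all peaks in those lists were at or above these levels. The window stood above the median of the whole list in every library: those medians were 1.26 and 1.34 in Panc327, 1.23 and 1.08 in BxPC3 and, for SUIT2, 1.09 and 1.00. The Panc327 level was also high beyond the window: in 1 Mb bins within 10 Mb of the gene, the lowest was 1.91 and 1.76 in Panc327, and no bin of BxPC3 or SUIT2 was above 1.75. At the highest peak over PTHLH itself, the highest background was in BxPC3 replicate 1. Relative to the genome-wide level it was 2.75 and 1.54 in BxPC3, 2.17 and 2.11 in Panc327 and, for SUIT2, 1.31 and 1.17. The fold already divides by this background. Without that division, as pile-up over the genome-wide level, the peak over PTHLH stood at 348 and 85.6 in Panc327, 85.1 and 92.7 in BxPC3, and 21.9 and 20.8 in SUIT2. SUIT2 was the lowest by both measures, and Panc327 replicate 2 lay between the BxPC3 libraries by both. The part of the background in the number and breadth of the Panc327 peaks was not tested.

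**Figure D5:**
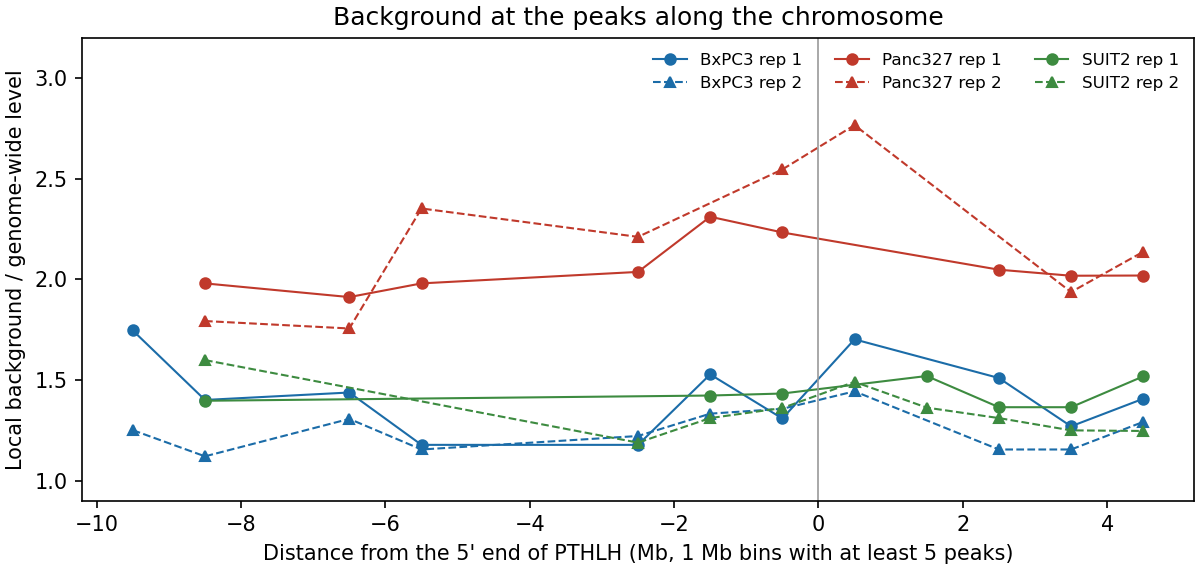
Median background at the peaks relative to the genome-wide level of the library, in 1 Mb bins by distance from the 5′ end of PTHLH; lines join bins that held at least 5 peaks. Both Panc327 libraries lie at 1.76 or above in every bin, and the BxPC3 and SUIT2 libraries lie at 1.75 or below.

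The lower edge of the window fell close to called peaks and the upper edge far from any. Just outside the lower edge, 5 of the libraries had a peak within 2.11 to 2.64 kb, the closest in BxPC3 replicate 1 at 27997050 to 27997892 with a fold of 19.8. Just inside it, the first SUIT2 peaks lay 1.00 and 1.05 kb from the edge, with folds of 6.60 and 5.31, and those of the other 4 libraries 104.2 to 121.8 kb from it. At the upper edge, the last peak inside was 54.3 to 55.5 kb away in all 6 libraries and the next outside 177.4 to 901.8 kb away. By mean absolute difference in covered length over the 6 libraries, the windows most like this one were on chromosome 2 from 208000001 (a difference of 5.58 kb), on chromosome 3 from 189200001 (5.95 kb) and on chromosome 3 from 111200001 (6.27 kb). In all of them Panc327 replicate 2 had the longest covered length, 30.1, 39.9 and 35.8 kb, and Panc327 replicate 1 had 8.93, 2.20 and 3.57 kb. These windows were picked by the same lengths, so a like order of the libraries largely follows from the choice. That likeness is a description over 6 libraries.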

How the data were processed

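Values came from 6 narrowPeak lists on hg19, 1 per H3K27ac library. The submitters' processing notes name MACS2, Bowtie 1.1.1 and bcl2fastq 1.8.4; which settings and version of MACS2 were run is not given in the sources used here. The fold, deposited by the authors, is a ratio of pile-up to background. The −log10 p-value and the −log10 q-value were likewise deposited by the authors, and no peak had a −log10 p under 10.0. The deposited peak and summit positions were used as given, here counted from 1.

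Pile-up and background at each summit were solved from the fold and −log10 p, assuming a pseudocount of 1 and a Poisson tail as in MACS2. Within a tolerance of 0.001 in −log10 p this solved 99.9 to 100% of a list, with fitted pile-up scales of 0.752 and 0.652 for BxPC3 replicates 1 and 2 and 1 for the others. The genome-wide level was the most frequent background of a list. No label states these settings, nor that the inputs were the control. Depth is not stated in the lists. The genome-wide level was 1.96 and 2.37 reads for BxPC3, 1.46 and 2.85 for Panc327 and 3.29 and 3.61 for SUIT2. It is on the scale of the fitted pile-up, which was below 1 in BxPC3 alone, so it does not rank the libraries by depth.

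Chromosomes 1 to 22 and X were used. Peaks sharing at least 1 bp were merged, and a line marked a region if both its libraries had a peak there. bedtools 2.31.1 gave the same number of regions, 58994. The code ran on Python 3.11.15 with scipy 1.17.1, pandas 2.3.3, matplotlib 3.10.9 and numpy 2.4.6. Both the solving step and the region classes were tested on simulated data. The locus, lists and settings were chosen with earlier results of these data known. Positions named are the regions over the gene, those of 1 line alone, the widest and highest of each line and those at the window edges; the other regions were named after their values were seen. Promoter peaks of pathway genes (receptors, other ligands, regulators) and of cell type markers needed gene positions on hg19 and were not analysed here.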

Additional observations from a re-analysis of the deposited data

How the results depend on the processing

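Counts of regions depended on how a region is called. At a −log10 q of at least 20, SUIT2 covered 9.26 kb of the window and marked 5 regions, 2 of them its own. With a single peak over at least 50% of the region required, 0 were called in all libraries, 0 were marked in Panc327, 2 in BxPC3 and 5 in SUIT2, and 0 were shared by BxPC3 and Panc327 alone. In the gene interval with 100 kb on either side, BxPC3 covered 17.1 kb and SUIT2 6.76 kb, 4 and 5 regions were marked in them, 1 was called in all libraries and 0 were of BxPC3 alone. Leaving out 1 library in turn, Panc327 covered 8.62 to 58.2 kb, BxPC3 20.9 to 25.7 kb and SUIT2 10.1 to 10.3 kb. Over the same settings Panc327 marked 4 to 13 regions, of which 0 to 6 were its own: 13 and 6 without Panc327 replicate 1, since 1 library then marks a region. Regions of BxPC3 alone ranged from 1 to 6 (6 without Panc327 replicate 2, 2 without BxPC3 replicate 1), those of BxPC3 and Panc327 without SUIT2 from 2 to 4 (4 without Panc327 replicate 1), those of BxPC3 and SUIT2 without Panc327 from 0 to 1 (1 without Panc327 replicate 2), and those called in all libraries from 2 to 3. The 5 regions of SUIT2 alone stayed at 5 under each library left out. Under the settings that kept all libraries, 6 other covered lengths moved by less than 1 SD and 39 other counts by at most 1.5 times. Some of those lengths were of Panc327, whose SD of 35.0 kb exceeded its mean of 33.4 kb, so no fall could have reached 1 SD. Counts of 0 that stayed at 0 are among the 39. With a library left out, 54 other counts moved by at most 1.5 times. A mean over 2 libraries must then move by less than 1 SD, so the ranges of covered length above say nothing on stability. No paired analysis was possible because the results come from no test. Without read counts, a region with no peak cannot be told from one under the caller's threshold.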
